A study of Mus musculus with 6 samples.

Results

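Overexpression of miR-128 in primary mouse vascular smooth muscle cells was set against the scrambled control titled shScr1, over every gene detected on both arrays of miR-128 or on both arrays of shScr1. An Illumina bead array gives a detection p-value for each probe, and a gene counted as detected where a probe of it had a value under 0.05. The rule took 8306 of the 16593 named genes on the array, measured on 4 of the study's 6 arrays. The cells came from C57BL/6J mice of 8 weeks and received lentivirus carrying miR-128 (mir128 replicates A and B), the scrambled miRNA of shScr2 (A and B) or the scrambled miRNA of shScr1 (A and B). All 3 groups shared the transduction, 2 days of puromycin selection and harvest of RNA at 5 days. No group was left untransduced, and the labels give neither the promoter of the vector, nor the form of miR-128 that it carried, nor how the scrambled sequences of shScr1 and shScr2 differ. The replicates are described as biological, without stating whether they came from separate animals, so the tests measure the spread between these arrays.

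Of the 8306 genes, 7293 were detected on both arrays of both groups, 763 in miR-128 only and 250 in shScr1 only. Within the last 2 sets, 408 genes were undetected on both shScr1 arrays and 63 on both miR-128 arrays. At the edge of the detection rule, 220 named probes had a detection p of 0.04 to 0.05, with a median level of 4.84 with miR-128 and 4.99 in shScr1. Another 288 probes lay at 0.05 to 0.06, with a median of 4.81 with miR-128 and 4.92 in shScr1. The array carries 7 smooth muscle markers. Both miR-128 arrays detected 6 of them and both shScr1 arrays 3, and Cnn1, calponin, was undetected on all 4. The label of smooth muscle cell thus rested in shScr1 on Acta2, Tagln and Smtn, while Myh11, the smooth muscle myosin heavy chain, Lmod1 and Notch3 were undetected there. Of 9 endothelial markers, 6 were undetected on all 4 arrays, among them Pecam1, Cdh5 and Vwf, as were 6 of 10 leukocyte markers, among them Ptprc, Adgre1 and Itgam, and 6 of 7 adipocyte markers.

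Vascular smooth muscle cells of the artery wall carry a contractile apparatus of smooth muscle actin, myosin and their regulators, and when grown in culture they lose part of it while they divide and lay down matrix. Much of the contractile programme is driven by serum response factor, SRF, which binds a DNA element called the CArG box together with myocardin or the myocardin-related factors. A miRNA is a short RNA that guides Argonaute proteins to messenger RNAs that pair with its seed, bases 2 to 8, and lowers their level or their translation. miR-128 is made from hairpins in introns of R3hdm1 and Arpp21 and is best known from the brain, muscle and tumours.

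The mature miR-128 sequences are shown because the seed defines which messages the overexpressed miRNA could pair with. They are the RefSeq sequences of build GRCm38.p6, written 5′ to 3′ with the seed in capitals. The 3p arm is the same from both hairpins, at chr1:128202404-128202424 on the plus strand and chr9:112118644-112118664 on the minus strand. The 5p arms lie at chr1:128202369-128202389 on the plus strand and chr9:112118679-112118701 on the minus strand, and share a seed with each other. No mature mouse miRNA of another name in that table shared either seed.
mmu-miR-128-3p: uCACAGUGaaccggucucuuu
mmu-miR-128-1-5p: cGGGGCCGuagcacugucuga
mmu-miR-128-2-5p: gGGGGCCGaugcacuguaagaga

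Levels below are log2 intensities after background correction and quantile normalization, a log2 change is miR-128 minus shScr1 with its standard error, and a gene was called when its adjusted p in limma was under 0.05. Levels belong to a probe, so they are compared between arrays and not between genes. With miR-128, 2248 of the 8306 genes were called (27.1%), of which 1208 were higher (14.5%) and 1040 lower (12.5%). The median log2 change over all genes was 0.02, and 1070 of the called genes changed at least 2-fold, 599 of them higher and 471 lower. At least 4-fold changes were mostly rises, with 115 genes higher and 41 lower. Both miR-128 arrays lay above both shScr1 arrays for 34.3% of the genes and below both for 31.8%, so that the groups did not overlap for 66.1%. Scaling each array to a common median in place of quantile normalization moved the median of all genes to 0.20 and the calls to 987 higher and 490 lower, so that 66.8% of the calls were rises, against 53.7% with quantile normalization.

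The miR-128 arrays differed more from each other than the shScr1 arrays did. The standard deviation of replicate A minus replicate B over the genes was 0.532 in miR-128 and 0.261 in shScr1, and the arrays correlated across genes at 0.971 in miR-128 and 0.993 in shScr1. The fit shares 1 spread over the groups, so the standard errors of single genes may be too small where the miR-128 arrays disagree. Replicate A of miR-128 was also the brightest array before normalization, with its upper quartile of intensity at 373, against 247 on replicate B, and 252 and 232 on the shScr1 arrays. It detected 13277 probes and replicate B 12343, against 12040 and 11589 on the shScr1 arrays. Fewer genes passed the threshold with 1 shScr1 array: 300 were called without shScr1 replicate A and 343 without replicate B. The spread then comes from the miR-128 and shScr2 pairs alone. None of the 2248 called genes changed sign in either fit. The median log2 change of the contractile list described next was 1.55 and 1.49 in these fits, against 1.52 with all arrays, and that of the mitosis list −1.26 and −1.30, against −1.27. Below, calls that remained without an array are those still past the threshold. Without a miR-128 array the spread comes from the shScr1 and shScr2 pairs alone, and these pairs were closer than the miR-128 pair. Calls that remained there thus do not show how far a change depends on 1 miR-128 replicate. Leaving out 1 shScr2 array, A or B, which enters only through the shared spread, gave 1359 calls.

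**Figure D1:**
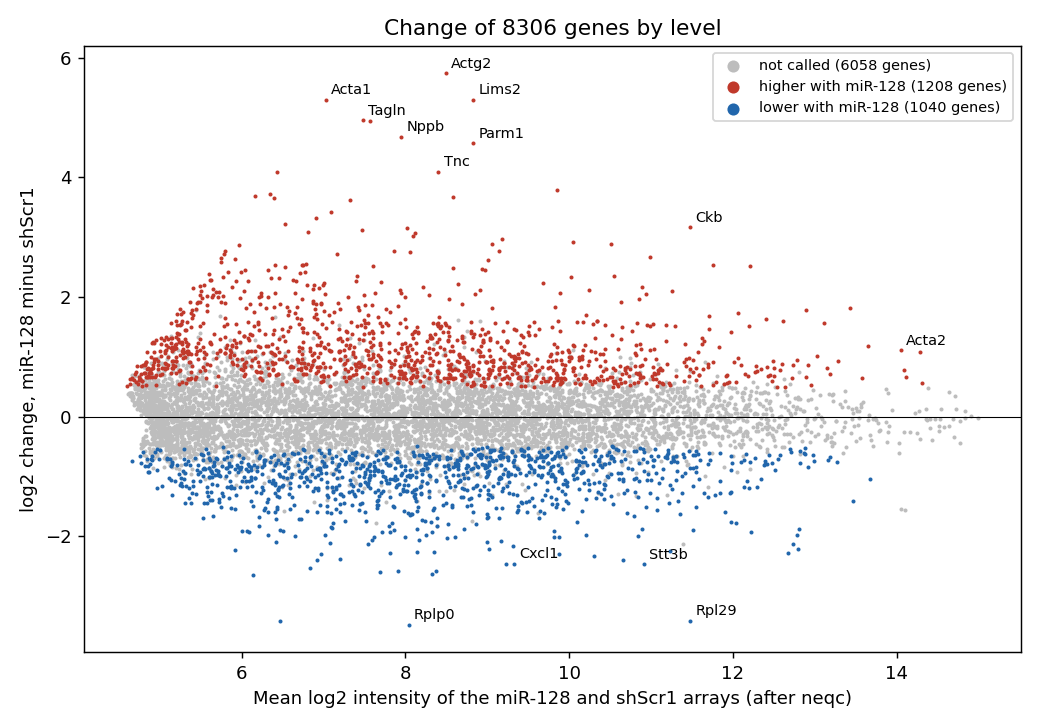
Log2 change of each of the 8306 genes, miR-128 minus shScr1 (vertical axis), against its mean log2 intensity (horizontal axis), with genes called higher, called lower and not called in separate colours. The named muscle genes sit at the top, up to a change of 5.74 for Actg2, and Rplp0 and Rpl29 near the bottom, at −3.47 and −3.41.

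Contractile smooth muscle genes rose together. Of the 12 contractile genes that met the rule, 10 were higher (83.3%, against 14.5% of all genes) and 0 were lower. The median log2 change was 1.52, or 1.46 with genes undetected in shScr1 set at their lower bound, against 0.02 over all genes. However, 5 of the 12 met the rule through miR-128 alone, the group where they were high. Among the 7 detected on both arrays of both groups, 6 were higher and the median was 1.49. Actg2, the smooth muscle gamma actin, was at 11.02 and 11.70 on the miR-128 arrays, against 5.77 and 5.48 on the shScr1 arrays. Actg2 was 53.4-fold higher (log2 change 5.74 ± 0.25, adjusted p = 0.000221), the largest log2 change among genes detected in shScr1. Tagln, the gene of transgelin, an actin-binding protein, was at 9.79 and 10.13 on the miR-128 arrays, against 4.90 and 5.10 on the shScr1 arrays (log2 change 4.96 ± 0.20, adjusted p = 0.000221), a 31.1-fold rise. Its shScr1 levels lay just above the lowest detected levels of those arrays, 4.89 and 4.98. Over the other processing settings the log2 change ran from 1.84 to 5.13 for Tagln and from 3.00 to 6.08 for Actg2, so the folds depend on the setting. In shScr2 Actg2 was at 6.90 and 6.84 and Tagln at 5.27 and 5.57, so both scrambled groups lay far below miR-128 for these genes.

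Several contractile genes were not detected in shScr1 at all, and for them only a lower bound on the rise can be given, taken against the lowest detected level of each shScr1 array. Lmod1, leiomodin, which nucleates actin filaments, was at 8.42 and 8.03 with miR-128, against 4.60 and 4.53 in shScr1, and was at least 9.80-fold higher (adjusted p = 0.000325). Mrvi1, which links the nitric oxide pathway to the calcium store, was at 7.30 and 7.06 with miR-128, against 4.44 and 4.39 in shScr1, at least 4.73-fold higher (adjusted p = 0.000779). Myh11 itself was low: it was at 5.76 and 6.27 with miR-128, against 4.50 and 4.46 in shScr1, at least 2.11-fold higher (adjusted p = 0.00534). Among the others, the tropomyosin genes Tpm1 and Tpm2 rose by 1.82 and 1.49 on the log2 scale and Smtn, smoothelin, by 1.43. Mylk, the myosin light chain kinase, was undetected in shScr1 and at least 1.58-fold higher (adjusted p = 0.00646). Synm, which encodes synemin, was also undetected in shScr1 and did not pass the test (adjusted p = 0.0543). Cald1, which encodes caldesmon, did not pass, with a log2 change of 0.38 ± 0.27 (adjusted p = 0.337). Of the 10 contractile calls, 6 remained without replicate A of shScr1, 7 without its replicate B and 10 without any 1 of the other 4 arrays.

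Acta2, the smooth muscle alpha actin, depended on the probe. Its brightest probe was at 14.39 and 14.82 on the miR-128 arrays, against 13.43 and 13.55 on the shScr1 arrays (log2 change 1.12 ± 0.19, adjusted p = 0.00973), near the top of the scale on all arrays. The other 3 Acta2 probes that met the rule gave log2 changes of 3.52, 3.99 and 4.20. In shScr2 the brightest probe was at 14.32 and 14.34, above shScr1 and close to the miR-128 arrays, and against shScr2 the adjusted p for it was 0.321. Tagln, Lmod1 and Myh11 in shScr2 stayed far below miR-128, with Lmod1 at 4.98 and 4.83 and Myh11 at 4.33 and 4.57. Cnn1 was at 4.69 and 4.70 on the miR-128 arrays, against 4.43 and 4.59 on the shScr1 arrays, without detection on any of them. Myocd, which encodes myocardin, was at 4.80 and 4.31 on the miR-128 arrays, against 4.84 and 4.44 on the shScr1 arrays, and it did not meet the rule. The summed linear signal of 6 markers of pericytes, the mural cells of small vessels, was 576 and 523 on the miR-128 arrays and 267 and 306 on the shScr2 arrays, against 307 and 341 on the shScr1 arrays. Of the 4 pericyte markers that met the rule, Rgs5 was higher, and Mcam, Cspg4 and Kcnj8 did not pass, while Higd1b was undetected on all 4 arrays. The part of pericytes in the muscle values was not tested.

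Partners of actin and stress genes of striated and smooth muscle held some of the steepest rises. Of 15 such genes, 14 were higher (93.3%, against 14.5% of all genes) and 0 lower. The median log2 change was 2.53, and it was the same with undetected genes at their bound. However, 4 of the 15 met the rule through miR-128 alone, the group where they were high. Among the 11 detected on both arrays of both groups, 10 were higher and the median was 1.54. Lmcd1, a LIM-domain repressor known from heart muscle, was at 9.85 and 10.23 on the miR-128 arrays, against 4.85 and 5.33 on the shScr1 arrays (log2 change 4.95 ± 0.27, adjusted p = 0.000545), with detection on only 1 shScr1 array. Nppb, which encodes the natriuretic peptide BNP and marks stretched heart muscle, was at 10.86 and 9.71 on the miR-128 arrays, against 5.76 and 5.47 on the shScr1 arrays (log2 change 4.68 ± 0.36, adjusted p = 0.00140). Its miR-128 arrays were both far above shScr1, although they differed from each other by more than the shScr1 arrays did. In shScr2 it was at 8.06 and 7.86, also above shScr1.

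Genes of striated muscle that shScr1 did not express to the detection limit belonged to the same group. Acta1, skeletal muscle actin, was at 10.56 and 8.80 with miR-128, against 4.39 and 4.36 in shScr1, at least 26.8-fold higher (adjusted p = 0.00213). It was detected on both shScr2 arrays, at 6.38 and 6.47. Asb2, a muscle ubiquitin ligase subunit that targets filamins, was at 8.30 and 8.66 with miR-128, against 4.36 and 4.41 in shScr1, at least 11.7-fold higher (adjusted p = 0.000325). Mustn1, a small musculoskeletal nuclear protein, was at 8.07 and 7.94 with miR-128, against 4.26 and 4.36 in shScr1, at least 8.41-fold higher (adjusted p = 0.000221). Fhl1, a LIM-only protein of muscle, was bright in every sample, with close replicates, at 13.43 and 13.52 with miR-128, against 10.90 and 10.99 in shScr1 (log2 change 2.53 ± 0.15, adjusted p = 0.000648). The other called members were Csrp1, Fhl2, Ankrd1, Pdlim5, Pdlim7, Actn1, Hspb1 and Cryab, from 0.73 for Cryab to 2.67 for Ankrd1. Csrp2 did not pass, at 0.29 ± 0.14 (adjusted p = 0.176). Of the 14 calls, 9 remained without replicate A of shScr1, 9 without its replicate B and 12 to 14 without any 1 of the other 4 arrays.

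**Figure D2:**
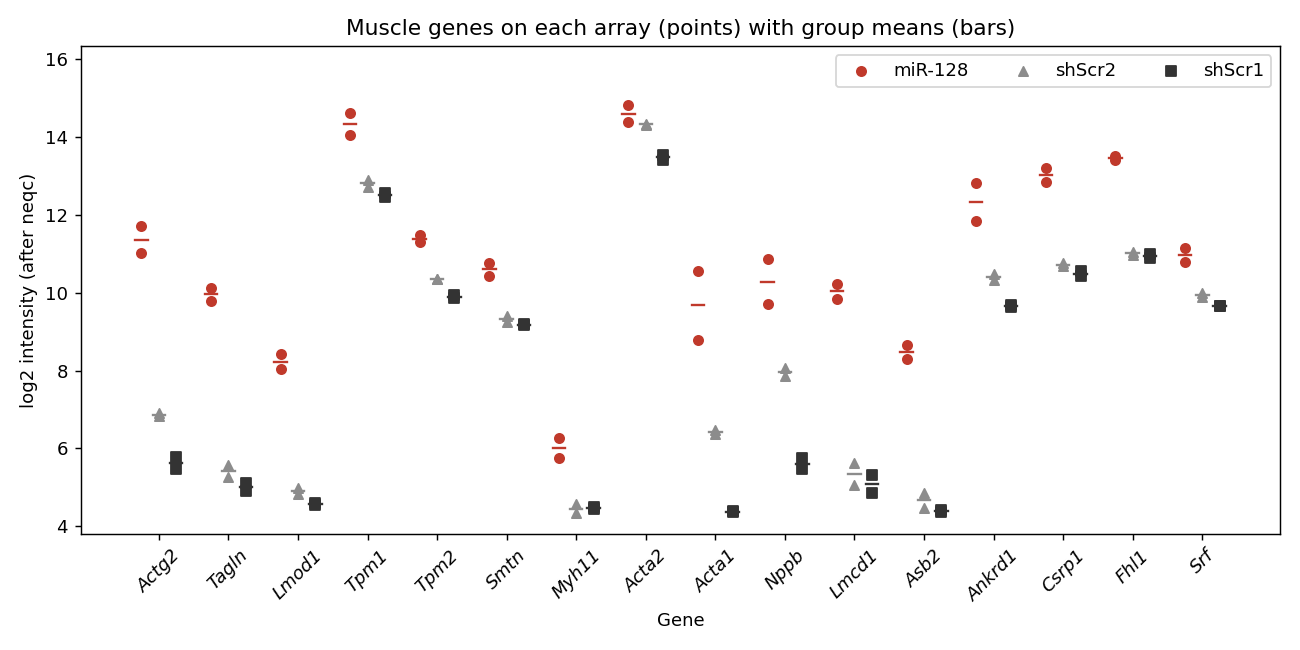
Log2 intensity of muscle genes on each array, with miR-128 left of shScr2 and shScr1 for each gene, 1 point per replicate and a bar at the group mean. The miR-128 points lie above both shScr1 points for every gene drawn, and for Acta2 the shScr2 points lie above shScr1 and just below miR-128.

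Among the regulators of smooth muscle phenotype, 4 of 11 were higher (36.4%, against 14.5% of all genes) and 0 lower, with a median log2 change of 0.27. Among the 9 detected on both arrays of both groups, 3 were higher and the median was −0.04. Srf was at 11.16 and 10.79 on the miR-128 arrays, against 9.67 and 9.65 on the shScr1 arrays (log2 change 1.32 ± 0.18, adjusted p = 0.00498), and both miR-128 arrays exceeded both shScr1 arrays. Its second probe gave a log2 change of 0.27 (adjusted p = 0.566 over the 11423 probes that met the rule, over which the p-values of further probes are adjusted throughout). Klf5, a zinc finger factor of growing smooth muscle, rose by 1.75, Zeb1 by 0.98, and Mrtfb, a myocardin-related coactivator, was at least 1.83-fold higher than its undetected level in shScr1 (adjusted p = 0.0188). Klf4, a factor that represses contractile genes and a published miR-128 target, was at 9.75 and 9.22 with miR-128, against 9.90 and 9.76 in shScr1 (log2 change -0.35 ± 0.21, adjusted p = 0.266), and replicate A of miR-128 lay close to the shScr1 arrays. Its other 2 probes gave −0.47 and −0.35, and neither passed. Of the 4 calls, 1 remained without replicate A of shScr1, 1 without its replicate B and 4 without any 1 of the other 4 arrays.

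The promoter windows of these genes, from 250 bases before to 50 bases after the annotated start, were searched for the CArG box, since SRF acts through it. The box was searched as CC, 6 bases of A or T and GG, with no mismatch allowed. It lay in 6 of 18 windows of the muscle actin partners (33.3%), against 1.40% of the windows of all genes that met the rule and had one, and 1.63% of all windows. In the contractile list this exact form lay in 0 of 11 windows, and boxes that depart from it were not searched. The share was also high in the immediate early list, at 4 of 13 windows (30.8%). Of the 13 genes of that list, 3 were higher and 1 lower, so the box was not particular to the muscle actin partners. The stretches around the box, from RefSeq promoters of build GRCm38.p6, are written 5′ to 3′ on the gene's strand with the box in capitals. They lie at chr12:103356031-103356090 on the minus strand for Asb2, chr6:112273518-112273577 on the plus strand for Lmcd1, chrX:56779556-56779615 on the plus strand for Fhl1 and chr8:123894814-123894873 on the minus strand for Acta1. Fhl2 had a box in 2 windows of different starts, and the box nearer to its own start is at chr1:43163958-43164017 on the minus strand. The match is to letters only and says nothing of binding in these cells.
Asb2: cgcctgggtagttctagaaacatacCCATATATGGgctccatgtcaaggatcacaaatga
Lmcd1: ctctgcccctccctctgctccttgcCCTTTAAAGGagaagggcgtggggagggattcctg
Fhl1: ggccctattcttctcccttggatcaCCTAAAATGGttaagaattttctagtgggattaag
Acta1: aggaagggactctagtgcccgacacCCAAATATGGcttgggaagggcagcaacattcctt
Fhl2: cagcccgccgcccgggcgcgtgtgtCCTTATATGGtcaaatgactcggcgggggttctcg

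Genes of focal adhesions, where integrins join the actin cytoskeleton to the matrix, rose. Of 14 such genes, 10 were higher (71.4%, against 14.5% of all genes) and 0 lower, with a median log2 change of 0.91. However, 2 of the 14 met the rule through miR-128 alone. Among the 12 detected on both arrays of both groups, 9 were higher and the median was 0.91. Among the rises, 1 stood far above the rest. This was Lims2, also called PINCH2, an adaptor that binds integrin-linked kinase, at 11.41 and 11.54 on the miR-128 arrays, against 6.22 and 6.13 on the shScr1 arrays (log2 change 5.30 ± 0.15, adjusted p = 0.000101), and its 3 probes gave log2 changes of 5.30, 5.11 and 4.62. Ilk, the kinase it binds, was at 12.34 and 12.23 with miR-128, against 10.99 and 11.03 in shScr1 (log2 change 1.27 ± 0.15, adjusted p = 0.00341). Among the integrins, Itga3 rose by 1.58 ± 0.15, Itga5, part of the fibronectin receptor, by 2.22 ± 0.35, and Itgb1, the common beta chain, by 1.18 ± 0.20. Itga1, a collagen receptor chain, was detected on 1 of the shScr1 arrays and was at 6.45 and 7.12 with miR-128, against 5.07 and 4.46 in shScr1 (log2 change 2.01 ± 0.29, adjusted p = 0.00619). Vcl, Itgav, Parva and Bcar1 rose by 0.64 to 0.98. The adaptors Zyx, Tln1 and Pxn and the integrin Itgb5 did not pass, with log2 changes of -0.01, 0.04, -0.21 and 0.32. Of the 10 calls, 4 remained without replicate A of shScr1, 4 without its replicate B and 7 to 9 without any 1 of the other 4 arrays.

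The matrix genes split. Of 34 collagen and matrix genes, 9 were higher (26.5%, against 14.5% of all genes) and 4 lower (11.8%, against 12.5%), with a median log2 change of -0.01. Of the 34, 3 met the rule through miR-128 alone and 2 through shScr1 alone. Among the 29 detected on both arrays of both groups, 9 were higher and 3 lower. Tnc, tenascin C, a matrix glycoprotein of injured arteries, was at 10.71 and 10.20 on the miR-128 arrays, against 6.14 and 6.57 on the shScr1 arrays (log2 change 4.10 ± 0.24, adjusted p = 0.000648). A second probe gave 3.97, a further probe that was undetected in shScr1 also passed, and another, detected on 1 shScr1 array, gave 0.00. Mfap5, a microfibril protein, was at 9.06 and 9.0 with miR-128, against 5.83 and 5.98 in shScr1 (log2 change 3.12 ± 0.15, adjusted p = 0.000304). Col4a2 and Col4a1, the basement membrane collagens, rose by 2.05 ± 0.25 and 1.69 ± 0.23, and Nid1, nidogen, by 1.51. Other matrix genes fell: Col6a2, a collagen VI chain, was at 8.65 and 8.47 with miR-128, against 10.11 and 10.20 in shScr1 (log2 change -1.59 ± 0.15, adjusted p = 0.00213), and Col1a2, Vcan and Lox fell by 0.96, 1.14 and 0.60 on the log2 scale. In shScr2 Col6a2 was at 8.96 and 8.86, near the miR-128 arrays. Of the 13 calls, 4 remained without replicate A of shScr1, 4 without its replicate B and 12 to 13 without any 1 of the other 4 arrays.

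Matrix proteases moved in both directions, with 6 of 17 higher (35.3%, against 14.5% of all genes) and 3 lower (17.6%, against 12.5%). Adam19, a membrane metalloprotease, was at 9.42 and 9.14 with miR-128, against 7.81 and 7.75 in shScr1 (log2 change 1.5 ± 0.17, adjusted p = 0.00315). Adamts5, an aggrecanase, rose by 1.20 ± 0.18, Mmp11 by 2.35 ± 0.33 and Mmp2, a gelatinase, by 0.91 ± 0.15. Mmp23 fell, at 5.40 and 5.21 with miR-128, against 7.14 and 7.11 in shScr1 (log2 change -1.82 ± 0.17, adjusted p = 0.00209). Mmp13, a collagenase, was at 10.44 and 7.84 with miR-128, against 5.47 and 5.54 in shScr1, and its 2 miR-128 arrays differed from each other more than any other named gene that rose. Its adjusted p was 0.0172, its other probes, detected on at most 1 shScr1 array, did not pass, and shScr2 lay at 7.89 and 8.02. Of the 9 protease calls, 3 remained without replicate A of shScr1, 2 without its replicate B and 7 to 9 without any 1 of the other 4 arrays.

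Of 23 growth factor genes, 10 were higher (43.5%, against 14.5% of all genes) and 4 lower (17.4%, against 12.5%). However, 4 of the 23 met the rule through miR-128 alone and 1 through shScr1 alone. Among the 18 detected on both arrays of both groups, 9 were higher and 4 lower. Egfr, the receptor of epidermal growth factor, was at 10.95 and 11.34 on the miR-128 arrays, against 9.51 and 9.58 on the shScr1 arrays (log2 change 1.60 ± 0.18, adjusted p = 0.00350), and its 3 other probes gave log2 changes of 0.71, 0.96 and 1.0, the last not past the threshold. Its ligand gene Hbegf was at 10.31 and 9.76 with miR-128, against 8.41 and 8.51 in shScr1 (log2 change 1.58 ± 0.21, adjusted p = 0.00495). The insulin-like growth factor genes Igf1 and Igf1r rose by 1.26 ± 0.15 and 1.42 ± 0.28, and Gas6, the ligand of the receptor Axl, by 2.46 ± 0.23, with detection on 1 shScr1 array. The platelet-derived growth factor receptors moved apart, with Pdgfrb higher by 1.67 ± 0.37 and Pdgfra at 6.16 and 5.53 with miR-128, against 7.01 and 7.08 in shScr1 (log2 change -1.20 ± 0.23, adjusted p = 0.0141). Pdgfra is also a fibroblast marker, and the summed signal of 9 fibroblast markers was 1699 and 1336 on the miR-128 arrays and 609.6 and 610.0 on the shScr2 arrays, against 1761 and 1666 on the shScr1 arrays. Igfbp2, a binding protein of the same growth factors, was at 7.63 and 9.52 with miR-128, against 5.50 and 4.99 in shScr1, with wide spread in miR-128 (log2 change 3.33 ± 0.67, adjusted p = 0.0164). Fgf7, Igfbp3 and Igfbp6 fell by 0.91, 1.07 and 0.98. Of the 14 calls, 3 remained without replicate A of shScr1, 3 without its replicate B and 12 to 14 without any 1 of the other 4 arrays.

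Of 30 genes of TGF-beta, BMP and YAP signalling, 7 were higher (23.3%, against 14.5% of all genes) and 3 lower (10%, against 12.5%). Among the 28 detected on both arrays of both groups, 6 were higher and 3 lower, and 2 genes met the rule through miR-128 alone. Tgfb3 was at 9.46 and 9.58 on the miR-128 arrays, against 7.35 and 7.74 on the shScr1 arrays (log2 change 1.97 ± 0.18, adjusted p = 0.00203), and Inhba, which forms activin, was at 12.66 and 11.95 with miR-128, against 10.25 and 10.16 in shScr1 (log2 change 2.10 ± 0.25, adjusted p = 0.00372). Ccn2, a connective tissue growth factor induced by YAP and by TGF-beta, was at 14.87 and 14.77 with miR-128, against 13.75 and 13.73 in shScr1 (log2 change 1.08 ± 0.15, adjusted p = 0.00512). Both shScr2 arrays stood as high as miR-128 for Ccn2, at 14.74 and 14.82, and between the groups for Inhba, at 11.23 and 11.42. Yap1 itself rose by 1.25 ± 0.20, and the receptor Tgfbr1 by 1.24 ± 0.18. The inhibitors and carriers Ltbp4, Grem1 and Fst fell by 1.74, 1.65 and 0.97. In the Notch and Wnt list, 3 of 16 were higher and 1 lower, so that 25% were called, close to the 27.1% over all genes: the ligand gene Wnt5a was at 8.69 and 8.27 with miR-128, against 6.78 and 7.13 in shScr1 (log2 change 1.52 ± 0.21, adjusted p = 0.00562), the receptors Fzd2 and Fzd8 rose by 0.73 and 0.89, and the secreted Wnt binder Sfrp2 was undetected in miR-128, at least 1.86-fold lower (adjusted p = 0.00523). Sfrp2 was at 4.41 and 4.40 in shScr2. Of the 10 TGF-beta, BMP and YAP calls, 3 remained without replicate A of shScr1, 4 without its replicate B and 7 to 10 without any 1 of the other 4 arrays, and of the 4 Notch and Wnt calls, 0 remained without replicate A of shScr1, 1 without its replicate B and 2 to 4 without any 1 of the other 4 arrays.

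DNA replication genes fell. Of 28 genes of replication and S phase, 16 were lower (57.1%, against 12.5% of all genes) and 0 higher, with a median log2 change of -1.13. Lig1, the DNA ligase of replication, was at 7.06 and 7.65 on the miR-128 arrays, against 9.44 and 9.13 on the shScr1 arrays (log2 change -1.93 ± 0.23, adjusted p = 0.00380). Tk1, thymidine kinase, was at 8.33 and 9.30 with miR-128, against 10.85 and 10.80 in shScr1 (log2 change -2.01 ± 0.31, adjusted p = 0.00714), and another of its probes, undetected with miR-128, also passed. Cdc6, which loads the replicative helicase, was at 6.87 and 7.52 with miR-128, against 8.69 and 8.84 in shScr1 (log2 change -1.57 ± 0.23, adjusted p = 0.00668). The arrays of the groups did not overlap for any of these, as for 66.1% of all genes, and miR-128 replicate A lay below replicate B. Pole, a replicative polymerase, was at 6.20 and 5.68 with miR-128, against 7.22 and 7.36 in shScr1 (log2 change -1.35 ± 0.21, adjusted p = 0.00731), and there replicate B was the lower. The helicase genes Mcm2, Mcm5, Mcm6 and Mcm7 fell by 0.88 to 2.26. In shScr2 Lig1 was at 9.28 and 9.25 and Cdc6 at 8.80 and 8.90, next to shScr1. Of the 16 calls, 1 remained without replicate A of shScr1, 1 without its replicate B and 13 to 16 without any 1 of the other 4 arrays.

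An E2F site, the element through which E2F factors act on S-phase genes, was searched as TTTCCCGC or TTTGGCGC on either strand. It lay in 6 of 18 windows of the replication genes that fell (33.3%) and in 7 of 30 of the whole list, against 2.72% of the windows of all genes that met the rule. Over all called genes the share was 1.82% of windows of genes that rose, 4.95% of those that fell and 2.52% of those not called. The stretches shown, with the site in capitals, lie at chr11:98907988-98908045 on the plus strand for Cdc6, chr8:75109335-75109392 on the plus strand for Mcm5, chr5:138172016-138172073 on the minus strand for Mcm7 and chr1:128359720-128359840 on the minus strand for Mcm6, of the same build and source.
Cdc6: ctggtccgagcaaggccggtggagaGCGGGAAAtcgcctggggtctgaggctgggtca
Mcm5: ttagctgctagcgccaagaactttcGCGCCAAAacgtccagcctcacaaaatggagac
Mcm7: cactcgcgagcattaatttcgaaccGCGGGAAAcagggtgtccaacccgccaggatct
Mcm6: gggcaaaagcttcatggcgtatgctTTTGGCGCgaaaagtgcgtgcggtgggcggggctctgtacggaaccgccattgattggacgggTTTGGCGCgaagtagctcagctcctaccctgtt

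Mitotic genes fell with them, and unevenly between the replicates. Of 20 mitosis genes, 12 were lower (60%, against 12.5% of all genes) and 0 higher, with a median log2 change of −1.27. That median was −1.99 for miR-128 replicate A and −0.71 for replicate B, each set against the shScr1 mean. Top2a, the topoisomerase that untangles chromosomes, was at 7.55 and 8.37 on the miR-128 arrays, against 10.05 and 10.04 on the shScr1 arrays (log2 change -2.09 ± 0.27, adjusted p = 0.00460). Mad2l1, a spindle checkpoint protein, was at 8.31 and 9.47 with miR-128, against 10.57 and 10.42 in shScr1 (log2 change -1.60 ± 0.36, adjusted p = 0.0217), and Prc1, which bundles the central spindle, was at 10.24 and 11.35 with miR-128, against 12.27 and 12.34 in shScr1 (log2 change -1.51 ± 0.34, adjusted p = 0.0224). Bub1b, another checkpoint protein, fell by 1.49 on the log2 scale. Both miR-128 arrays lay below both shScr1 arrays for each of these genes, as for 31.8% of all genes, with replicate A the lower. Of the 12 calls, 0 remained without replicate A of shScr1, 0 without its replicate B and 4 to 12 without any 1 of the other 4 arrays, and 2 remained when the 4 miR-128 and shScr1 arrays were fitted alone.

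Core histone genes, which are expressed in S phase apart from the variants, were lower for 9 of 16 members (56.2%, against 12.5% of all genes). None was higher, and the median was −0.81. H2ax, a variant that marks DNA breaks when phosphorylated, was at 7.32 and 7.90 on the miR-128 arrays, against 9.72 and 9.51 on the shScr1 arrays (log2 change -2.01 ± 0.24, adjusted p = 0.00386), and H2az1, another variant, was at 10.89 and 11.37 with miR-128, against 12.44 and 12.43 in shScr1 (log2 change -1.3 ± 0.19, adjusted p = 0.00649). The canonical H2A genes share much of their sequence, and probes to them may read each other's RNA. H2ac12 was at 10.54 and 12.52 with miR-128, against 13.82 and 13.81 in shScr1 (log2 change -2.28 ± 0.58, adjusted p = 0.0310), and H2ac7, H2ac11 and H2ac15 showed a like gap between miR-128 replicates. H2ac15, at 10.62 and 12.71 with miR-128, against 13.76 and 13.82 in shScr1, and H2ac11, at 8.09 and 10.18 with miR-128, against 11.51 and 11.42 in shScr1, were outside the fixed list, as was H2ac21, at 7.09 and 8.91 with miR-128, against 10.57 and 10.35 in shScr1. H2ac8, also outside it, was at 4.73 and 4.89 with miR-128, against 7.45 and 7.46 in shScr1 (adjusted p = 0.000721), and its miR-128 arrays were close together. H3c7, which was detected on only 1 miR-128 array, was at 4.63 and 4.90 with miR-128, against 8.27 and 8.09 in shScr1 (adjusted p = 0.000325), so its miR-128 level lay at the detection limit. Of the 9 list calls, 1 remained without replicate A of shScr1, 1 without its replicate B and 3 to 8 without any 1 of the other 4 arrays. Dnmt1, the maintenance DNA methyltransferase of S phase, fell too, at 7.37 and 8.19 with miR-128, against 9.60 and 9.71 in shScr1 (log2 change -1.88 ± 0.27, adjusted p = 0.00617), while among 24 chromatin genes in all 3 were higher and 2 lower.

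Genes of the p53 response and inhibitors of cyclin-dependent kinases rose, with a median log2 change of 0.60. Of 19, 10 were higher (52.6%, against 14.5% of all genes) and 1 lower (5.26%, against 12.5%). Gadd45a, a damage-response gene, was at 10.42 and 10.92 on the miR-128 arrays, against 7.71 and 7.69 on the shScr1 arrays (log2 change 2.97 ± 0.23, adjusted p = 0.00130). Cdkn1a, which encodes the kinase inhibitor p21, was at 13.00 and 12.85 with miR-128, against 11.26 and 11.12 in shScr1 (log2 change 1.74 ± 0.15, adjusted p = 0.00179), and its other probes gave 2.30 and 2.17. Cdkn2b, which encodes p15, was at 8.95 and 8.39 with miR-128, against 6.72 and 6.47 in shScr1 (log2 change 2.07 ± 0.23, adjusted p = 0.00312), and Phlda3, a p53 target that restrains Akt, was at 12.65 and 12.72 with miR-128, against 11.33 and 11.21 in shScr1 (log2 change 1.41 ± 0.15, adjusted p = 0.00276). The arrays were apart for all of them, as for 66.1% of all genes. Fas, Trp53inp1, Sesn2, Mdm2, Bbc3 and Ccng1 rose by 0.60 to 1.27, while Cdkn1b, which encodes p27, fell by 0.95. Cdkn2a was at a log2 change of 0.09 ± 0.19 (adjusted p = 0.741). Of the 11 calls, 4 remained without replicate A of shScr1, 4 without its replicate B and 8 to 11 without any 1 of the other 4 arrays.

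**Figure D3:**
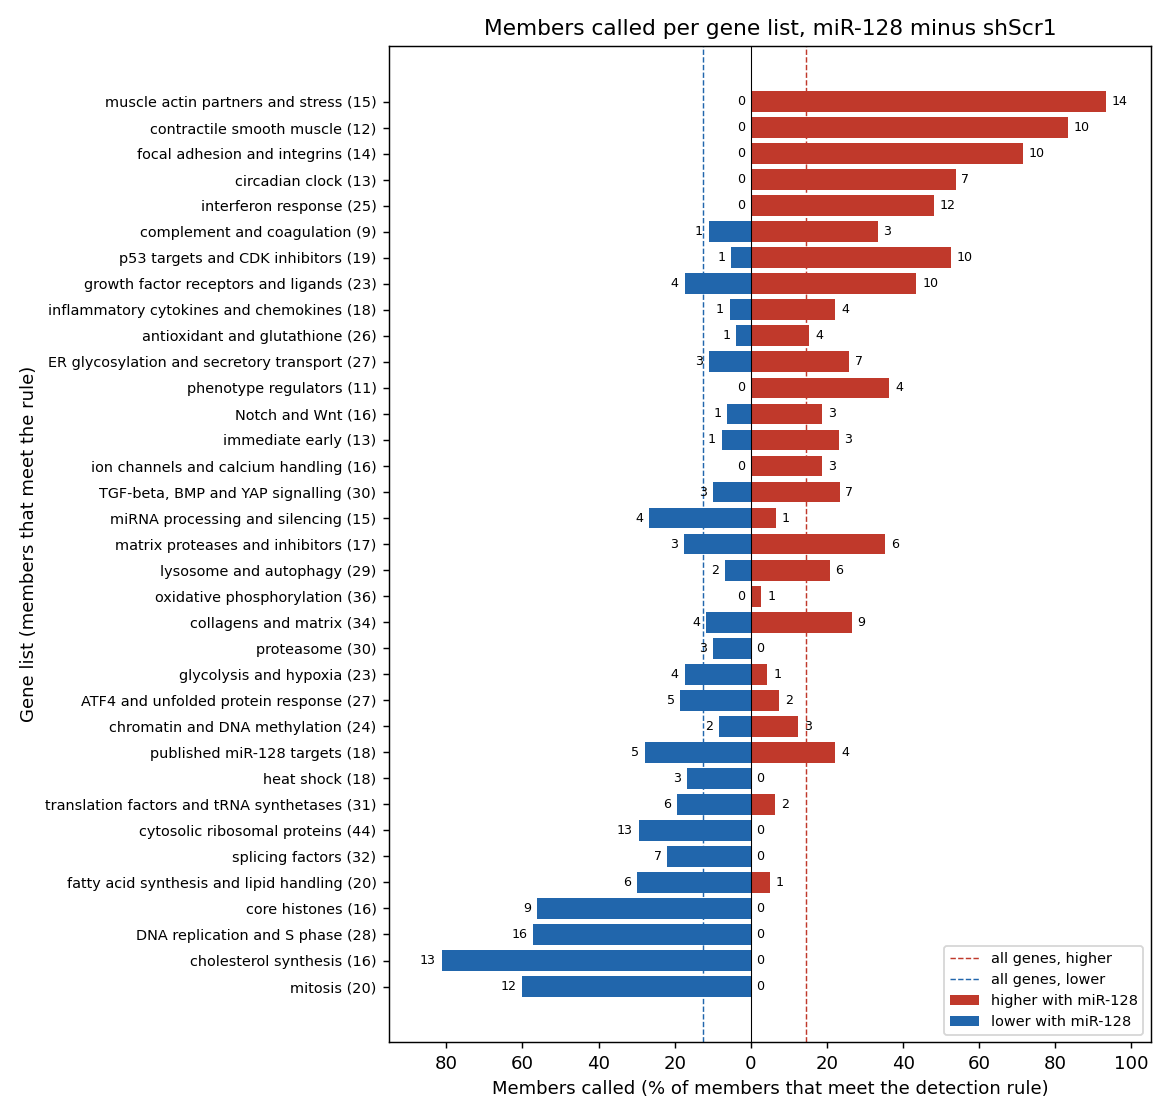
Share of the members of each gene list that were called higher (bars to the right) or lower (bars to the left) in miR-128 minus shScr1, in percent of the members that met the detection rule, with the number of genes at each bar and dashed lines at 14.5% and 12.5%, the shares over all genes. The muscle, adhesion, clock and interferon lists have 0 members lower, and the mitosis, cholesterol, replication, histone and ribosomal lists have 0 members higher.

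Interferon-response genes were higher for 12 of 25 members (48%, against 14.5% of all genes) and lower for 0, with a median log2 change of 0.85. Gbp2, an interferon-induced GTPase, was at 9.22 and 9.65 on the miR-128 arrays, against 6.64 and 6.70 on the shScr1 arrays (log2 change 2.76 ± 0.19, adjusted p = 0.000991), and a second probe, undetected in shScr1, did not pass. Ifit3, which binds viral RNA, was at 9.91 and 10.73 with miR-128, against 7.53 and 7.87 in shScr1 (log2 change 2.62 ± 0.29, adjusted p = 0.00315), with 2 other probes at 1.94 and 1.81 that did not pass. Ifi27l2a, another interferon-induced gene, was at 9.97 and 10.35 with miR-128, against 7.75 and 7.64 in shScr1 (log2 change 2.47 ± 0.22, adjusted p = 0.00200), and Gbp3 rose by 1.73 ± 0.25. The groups did not overlap for any of the 4, as for 66.1% of all genes. The scrambled groups differed in this list: the median of shScr2 minus shScr1 was −0.84, with Ifit3 at 6.49 and 6.63 and Gbp3 at 4.64 and 4.99 in shScr2, below shScr1. Among members that did not pass, Isg15 was at a log2 change of 1.44 ± 0.76 (adjusted p = 0.201), Usp18 at 1.61 ± 0.60 and H2-D1 at -1.03 ± 0.38. Of the 12 calls, 3 remained without replicate A of shScr1, 3 without its replicate B and 10 to 12 without any 1 of the other 4 arrays.

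The interferon-stimulated response element, searched as GAAANNGAAA on either strand, lay in 12 of 23 promoter windows of the interferon list and in 7 of 11 windows of the members that rose (63.6%), against 2.98% of the windows of all genes that met the rule. The windows of Gbp2, Ifit3 and Igtp, an interferon-induced GTPase that rose by 2.00, are shown around the element in capitals. They lie at chr3:142620579-142620638 on the plus strand, chr19:34583348-34583441 on the plus strand and chr11:58199497-58199556 on the plus strand.
Gbp2: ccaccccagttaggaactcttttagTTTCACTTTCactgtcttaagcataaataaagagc
Ifit3: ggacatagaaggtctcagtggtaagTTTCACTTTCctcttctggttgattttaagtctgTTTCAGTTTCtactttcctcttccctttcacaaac
Igtp: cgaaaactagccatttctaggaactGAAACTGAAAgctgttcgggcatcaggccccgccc

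Inflammatory cytokines showed no common direction, with 4 of 18 higher and 1 lower. Cxcl1, a neutrophil chemokine, was at 7.39 and 8.80 on the miR-128 arrays, against 10.55 and 10.55 on the shScr1 arrays (log2 change -2.45 ± 0.42, adjusted p = 0.00991). Of its miR-128 arrays, replicate A was the lower. Tnfaip3, a feedback inhibitor of NF-kappaB, was at 9.48 and 8.50 with miR-128, against 6.85 and 6.89 in shScr1 (log2 change 2.12 ± 0.33, adjusted p = 0.00730). Nfkbia, another such inhibitor, was at 9.60 and 9.68 with miR-128, against 8.67 and 8.66 in shScr1 (log2 change 0.97 ± 0.16, adjusted p = 0.00924). Ccl2, a monocyte chemokine, rose by 0.83 ± 0.23, but shScr2 lay at the miR-128 level, at 8.40 and 8.15. Of 9 complement and coagulation genes, 3 were higher (33.3%, against 14.5% of all genes) and 1 lower (11.1%, against 12.5%). Among the 8 detected on both arrays of both groups, 2 were higher and 1 lower, and 1 gene met the rule through miR-128 alone. Plaur, the urokinase receptor, rose by 1.57 ± 0.22, Thbd, thrombomodulin, by 1.14 ± 0.28, Serping1 was at least 1.62-fold higher, and Pros1 fell by 0.72. Of the 5 inflammatory calls, 0 remained without replicate A of shScr1, 0 without its replicate B and 3 to 5 without any 1 of the other 4 arrays, and of the 4 complement calls, 0 remained without replicate A of shScr1, 0 without its replicate B and 2 to 4 without any 1 of the other 4 arrays.

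Markers of leukocytes were mostly undetected. Of 10 on the array, 4 were detected with miR-128 and 2 in shScr1, and their summed signal was 698 and 784 on the miR-128 arrays and 821 and 808 on the shScr2 arrays, against 636 and 642 on the shScr1 arrays. Cd14 weighed most in that sum on the scrambled arrays, at 9.12 and 9.10 in shScr2 and 8.62 and 8.68 in shScr1. With miR-128, Cd14 was at 8.04 and 7.52. The part of leukocytes in the interferon values was not tested. Lyz1, a lysozyme, was at 7.65 and 8.44 with miR-128, against 5.99 and 5.99 in shScr1 (adjusted p = 0.00460). Lyz2, the lysozyme of macrophages, was at 5.84 and 6.65 with miR-128, against 4.91 and 4.56 in shScr1 (adjusted p = 0.0135). A second Lyz2 probe, undetected in shScr1, did not pass. Laptm5 was undetected in shScr1 and at least 1.22-fold higher (adjusted p = 0.040), while Cd14 fell by 0.87. The defining genes Ptprc, Adgre1, Itgam, Tyrobp, Fcer1g and Cd52 were undetected on all 4 arrays.

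Genes of cholesterol synthesis fell. Of 16 genes of the pathway and its control, 13 were lower (81.2%, against 12.5% of all genes) and 0 higher. The median log2 change was −1.26. Srebf2, the transcription factor that drives the pathway, was at 7.61 and 7.57 on the miR-128 arrays, against 8.98 and 9.26 on the shScr1 arrays (log2 change -1.53 ± 0.17, adjusted p = 0.00310). Sqle, squalene epoxidase, was at 9.59 and 9.69 with miR-128, against 10.94 and 11.06 in shScr1 (log2 change -1.36 ± 0.15, adjusted p = 0.00307), and Msmo1, a sterol oxidase, was at 8.76 and 8.81 with miR-128, against 10.68 and 10.29 in shScr1 (log2 change -1.70 ± 0.18, adjusted p = 0.00289). Stard4, a sterol carrier, was at 8.04 and 8.55 with miR-128, against 10.03 and 9.97 in shScr1 (log2 change -1.70 ± 0.20, adjusted p = 0.00373). All 4 were lower on both miR-128 arrays than on both shScr1 arrays, as were 31.8% of all genes. In shScr2 they lay between miR-128 and shScr1, with Srebf2 at 8.66 and 8.51, Sqle at 10.46 and 10.49 and Stard4 at 9.32 and 9.40, and the list's median of shScr2 minus shScr1 was −0.65. Fdps, Nsdhl, Cyp51, Mvd, Dhcr7, Insig1, Idi1, Hmgcs1 and Lss fell by 0.81 to 1.45, and Pmvk, Hsd17b7 and Sc5d did not pass. Of the 13 calls, 4 remained without replicate A of shScr1, 6 without its replicate B and 12 to 13 without any 1 of the other 4 arrays.

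Fatty acid genes fell in part, with 6 of 20 lower (30%, against 12.5% of all genes) and 1 higher (5%, against 14.5%). Fads1, the delta-5 desaturase, was at 9.54 and 9.37 on the miR-128 arrays, against 11.90 and 11.81 on the shScr1 arrays (log2 change -2.40 ± 0.15, adjusted p = 0.000794), a 5.28-fold fall with close replicates. Acly, which makes cytosolic acetyl-CoA, was at 10.40 and 9.93 with miR-128, against 11.49 and 11.53 in shScr1 (log2 change -1.35 ± 0.19, adjusted p = 0.00593), and Elovl6, an elongase, at 7.20 and 6.60 with miR-128, against 8.39 and 8.44 in shScr1 (log2 change -1.52 ± 0.23, adjusted p = 0.00696). Scd2, Acsl3 and Acadm fell by 1.14, 0.92 and 0.68. Plin2, which coats lipid droplets, was the exception, higher by 1.78 ± 0.28. Of the 7 calls, 1 remained without replicate A of shScr1, 1 without its replicate B and 5 to 7 without any 1 of the other 4 arrays.

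Among genes detected on all 4 arrays, the steepest falls were in the ribosome. Rplp0, the acidic stalk protein, was at 6.40 and 6.21 on the miR-128 arrays, against 9.82 and 9.74 on the shScr1 arrays (log2 change -3.47 ± 0.15, adjusted p = 0.000221), and Rpl29 at 9.80 and 9.75 with miR-128, against 13.23 and 13.13 in shScr1 (log2 change -3.41 ± 0.15, adjusted p = 0.000221), which is 11.1-fold and 10.6-fold lower. The arrays of each group were close to each other for both genes, and shScr2 stood beside shScr1 at 9.85 and 9.84 and 13.13 and 13.21. A second Rpl29 probe gave −3.48, but a second Rplp0 probe, near the detection limit at means of 4.33 with miR-128 and 4.97 in shScr1, did not pass (adjusted p = 0.0529). Ribosomal protein genes have many processed pseudogenes, and whether a probe also reads a copy was not tested. Of 44 cytosolic ribosomal protein genes, 13 were lower (29.5%, against 12.5% of all genes) and 0 higher, with a median of −0.40. Rpl12 and Rpl13a fell by 1.40 and 1.46 on the log2 scale, and Rpl4, Rpl19, Rpl21, Rpl22, Rpl27a, Rpl28, Rps6, Rps9 and Rps15 by 0.63 to 1.48. Of the 13 calls, 7 remained without replicate A of shScr1, 5 without its replicate B and 10 to 13 without any 1 of the other 4 arrays.

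Translation factors and tRNA synthetases had 6 of 31 members lower and 2 higher, and the 25.8% called was close to the 27.1% over all genes. Vars, the valyl-tRNA synthetase, was at 9.43 and 9.61 with miR-128, against 10.91 and 10.87 in shScr1 (log2 change -1.37 ± 0.15, adjusted p = 0.00324), and the elongation factor genes Eef2 and Eef1b2 fell, at -1.06 ± 0.19 and -1.17 ± 0.18 on the log2 scale. Other probes of Eef1b2 gave −0.43 and −0.39 and did not pass. Eif4ebp1, which restrains cap-dependent translation, rose by 0.85 ± 0.17. Of 32 splicing factors, 7 were lower (21.9%, against 12.5% of all genes) and 0 higher, with a median of −0.42. Snrnp70, a protein of the U1 particle, was at 5.82 and 7.41 with miR-128, against 9.13 and 9.26 in shScr1 (log2 change -2.58 ± 0.48, adjusted p = 0.0127), with its miR-128 arrays far apart but both below shScr1. Hnrnpa1, Srsf3 and Srsf10 fell by 1.27, 1.24 and 1.05. Of the 8 translation calls, 1 remained without replicate A of shScr1, 1 without its replicate B and 4 to 8 without any 1 of the other 4 arrays, and of the 7 splicing calls, 0 remained without replicate A of shScr1, 0 without its replicate B and 4 to 7 without any 1 of the other 4 arrays.

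Genes of chaperones, the proteasome and oxidative phosphorylation were called less often than the 27.1% over all genes, at 16.7%, 10% and 2.78%, and those of glycolysis at 21.7%. Among 18 heat shock genes, 3 were lower: Hspd1, the mitochondrial chaperonin, by 1.28, and the cytosolic chaperonin genes Cct4 and Cct7 by 0.60 and 0.76. Among 30 proteasome genes, Psmb4, Psmc5 and Psmd2, subunits of the particle, fell by 0.63 to 0.91 and none rose. Second probes of Psmc5 and Psmd2 gave −0.39 and −0.28 and did not pass, and with the mean over the probes of a gene 1 of the 3 calls remained. Among 36 genes of oxidative phosphorylation, 1 was called, Ndufa1, which rose by 0.71 ± 0.19, and the median was 0.00. Glycolysis had 4 of 23 lower and 1 higher. Tpi1, triose phosphate isomerase, was at 11.61 and 11.78 with miR-128, against 13.88 and 13.92 in shScr1 (log2 change -2.21 ± 0.15, adjusted p = 0.000991), and its 3 probes gave −2.21, −2.10 and −2.49. Pdk1, which shuts pyruvate out of the mitochondrion, was at 6.27 and 6.07 with miR-128, against 8.01 and 8.02 in shScr1 (log2 change -1.85 ± 0.15, adjusted p = 0.00164), but shScr2 was also low, at 6.61 and 6.68. Pfkl and Ldha fell by 1.13 and 0.77, with Pfkl at 10.79 and 10.92 in shScr2. Of the 5 glycolysis calls, 2 remained without replicate A of shScr1, 2 without its replicate B and 4 to 5 without any 1 of the other 4 arrays, of the 3 heat shock calls, 0 remained without replicate A of shScr1, 0 without its replicate B and 1 to 3 without any 1 of the other 4 arrays, and of the 3 proteasome calls, 0 remained without replicate A of shScr1, 0 without its replicate B and 0 to 3 without any 1 of the other 4 arrays.

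Genes of the circadian clock rose, with 7 of 13 higher (53.8%, against 14.5% of all genes), 0 lower and a median log2 change of 0.91. Dbp, an output factor of the clock, was at 9.56 and 10.39 on the miR-128 arrays, against 7.70 and 7.99 on the shScr1 arrays (log2 change 2.13 ± 0.28, adjusted p = 0.00495). Per2, a negative limb gene, was at 8.94 and 9.46 with miR-128, against 7.6 and 7.75 in shScr1 (log2 change 1.53 ± 0.21, adjusted p = 0.00522), and Nr1d1, which encodes REV-ERB alpha, was at 7.82 and 8.04 with miR-128, against 6.58 and 6.86 in shScr1 (log2 change 1.21 ± 0.18, adjusted p = 0.00626). The groups did not overlap for any of these, as for 66.1% of all genes. Tef, a relative of Dbp, rose by 0.91 ± 0.18, and Nr1d2, Cry2 and Nfil3 by 1.48, 1.10 and 0.72. Arntl, the positive limb gene known as BMAL1, was at 6.34 and 6.27 with miR-128, against 6.62 and 6.51 in shScr1 (log2 change -0.26 ± 0.27, adjusted p = 0.50), and Clock, its partner, was at a log2 change of 0.50 ± 0.15 (adjusted p = 0.0506). The median of shScr2 minus shScr1 in the list was −0.45, with Dbp at 7.0 and 7.09 in shScr2. The labels give no clock hour for the harvest. Of the 7 calls, 0 remained without replicate A of shScr1, 2 without its replicate B and 6 to 7 without any 1 of the other 4 arrays.

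In the secretory pathway, 7 of 27 genes were higher (25.9%, against 14.5% of all genes) and 3 lower (11.1%, against 12.5%). Both catalytic subunits of the enzyme that attaches sugar chains to new proteins fell: Stt3b was at 9.71 and 9.65 on the miR-128 arrays, against 12.09 and 12.20 on the shScr1 arrays (log2 change -2.47 ± 0.15, adjusted p = 0.000652), and Stt3a was at 6.04 and 6.55 with miR-128, against 7.34 and 7.63 in shScr1 (log2 change -1.19 ± 0.23, adjusted p = 0.0147). Lman2, a cargo lectin, was at 6.90 and 6.44 with miR-128, against 8.88 and 9.02 in shScr1 (log2 change -2.27 ± 0.21, adjusted p = 0.00201). The arrays were apart for each, as for 66.1% of all genes. The rises were smaller, with Sar1a, which starts coat formation at exit sites, at 0.88 ± 0.14 and Mcfd2, Tmed10, Sec22b, Kdelr3, Copg1 and Dad1, a further subunit of the same enzyme, at 0.65 to 0.95. Among 27 genes of the unfolded protein response and ATF4, Ddit3, which encodes CHOP, rose by 1.13 ± 0.20 and Atf3 by 0.90, while Pdia4, Calr, Psat1, Shmt2 and Slc7a5 fell by 0.72 to 1.57. Of the 10 secretory calls, 2 remained without replicate A of shScr1, 2 without its replicate B and 5 to 10 without any 1 of the other 4 arrays, and of the 7 stress calls, 0 remained without replicate A of shScr1, 0 without its replicate B and 6 to 7 without any 1 of the other 4 arrays.

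Lysosome and autophagy genes were higher for 6 of 29 members and lower for 2, and the 27.6% called was that of all genes (27.1%). Sqstm1, the autophagy receptor p62, was at 12.51 and 11.95 with miR-128, against 10.94 and 11.08 in shScr1 (log2 change 1.22 ± 0.22, adjusted p = 0.0111), Tpp1, a lysosomal peptidase, rose by 1.24 ± 0.25 and Atp6v0d1, a subunit of the proton pump, by 0.71 ± 0.15. Gusb, beta-glucuronidase, was at 9.80 and 9.64 with miR-128, against 10.99 and 10.97 in shScr1 (log2 change -1.26 ± 0.15, adjusted p = 0.00367). In the glutathione list, 4 of 26 were higher (15.4%, against 14.5% of all genes) and 1 lower, which is no more than the share over all genes gives. Gstt1, a glutathione transferase, was at 9.12 and 10.08 with miR-128, against 6.49 and 6.68 in shScr1 (log2 change 3.02 ± 0.31, adjusted p = 0.00276), Gstm5 and Gsta4 rose by 1.26 ± 0.27 and 1.65 ± 0.40, and Nfe2l2, which encodes NRF2, fell by 0.86. Of the 8 lysosome calls, 1 remained without replicate A of shScr1, 1 without its replicate B and 3 to 8 without any 1 of the other 4 arrays, and of the 5 glutathione calls, 1 remained without replicate A of shScr1, 1 without its replicate B and 3 to 5 without any 1 of the other 4 arrays.

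Ion channel and calcium genes were higher for 3 of 16 members and lower for 0. Kcnk2, a stretch-gated potassium channel, was at 7.99 and 7.81 on the miR-128 arrays, against 5.87 and 5.51 on the shScr1 arrays (log2 change 2.20 ± 0.26, adjusted p = 0.00373), with shScr2 between the groups at 7.12 and 6.44. Rgs5, which restrains G protein signals and marks pericytes, was at 7.95 and 7.93 with miR-128, against 6.66 and 6.62 in shScr1 (log2 change 1.3 ± 0.24, adjusted p = 0.0132), and Stim1, the calcium sensor of the store, rose by 1.12 ± 0.18. Among 13 immediate early genes, 3 were higher and 1 lower. Dusp1, a phosphatase of the MAP kinases, was at 11.98 and 11.96 with miR-128, against 9.88 and 9.72 in shScr1 (log2 change 2.17 ± 0.15, adjusted p = 0.000991). Dusp6, another of these phosphatases, was at 11.91 and 12 with miR-128, against 10.45 and 10.38 in shScr1 (log2 change 1.54 ± 0.15, adjusted p = 0.00215). Jun rose by 1.21 ± 0.19, with shScr2 at 8.32 and 8.10, and Egr2 fell by 0.87. Of the 3 channel calls, 1 remained without replicate A of shScr1, 1 without its replicate B and 3 without any 1 of the other 4 arrays, and of the 4 immediate early calls, 2 remained without replicate A of shScr1, 2 without its replicate B and 4 without any 1 of the other 4 arrays.

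Published targets of miR-128 were read against the same contrast. Of 18 that met the rule, 4 were higher (22.2%, against 14.5% of all genes) and 5 lower (27.8%, against 12.5%), and the median log2 change was −0.18, against 0.02 over all genes. Among the 15 detected on both arrays of both groups, 4 were higher and 4 lower. Phf6, a chromatin protein, was at 7.10 and 7.35 on the miR-128 arrays, against 8.10 and 8.34 on the shScr1 arrays (log2 change -1.0 ± 0.18, adjusted p = 0.0116), with all scrambled arrays above both miR-128 arrays and shScr2 at 8.20 and 8.38. Casc3, a component of the exon junction, was at 8.50 and 8.83 with miR-128, against 9.86 and 10.05 in shScr1 (log2 change -1.29 ± 0.18, adjusted p = 0.00537), with shScr2 at 9.81 and 9.88. Rxra, a nuclear receptor, fell, at -0.72 ± 0.15 on the log2 scale, as did Pdgfra, at -1.20 ± 0.23. Ntrk3, the receptor of neurotrophin 3, was undetected with miR-128 and at least 3.04-fold lower than shScr1 (adjusted p = 0.00310), but it was also undetected in shScr2, at 4.60 and 4.42. Egfr, Tgfbr1, Txnip and Pparg, named as targets in other cells, rose by 1.60, 1.24, 1.16 and 1.10, and Txnip was at 9.59 and 9.52 in shScr2, at the miR-128 level. Suz12, Bmi1, E2f3, Sirt1, Irs1, Jag1, Vegfc, Upf1 and Klf4 did not pass. Of the 9 calls, 2 remained without replicate A of shScr1, 3 without its replicate B and 9 without any 1 of the other 4 arrays. The array does not measure miR-128 itself, and the pairing of its seed with these messages was not examined here.

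The genes that carry the miR-128 hairpins were low. R3hdm1 was undetected on both miR-128 arrays and was at 4.49 and 4.79 with miR-128, against 5.02 and 5.07 in shScr1 (adjusted p = 0.119), and Arpp21 did not meet the rule. Among 15 genes of miRNA processing and silencing, 1 was higher (6.67%, against 14.5% of all genes) and 4 lower (26.7%, against 12.5%). Dicer1, which cuts the hairpin precursor, was at 8.68 and 8.15 with miR-128, against 7.11 and 7.26 in shScr1 (log2 change 1.23 ± 0.21, adjusted p = 0.0103). Ago2, the Argonaute that slices, was at 6.09 and 6.19 with miR-128, against 7.16 and 6.83 in shScr1 (log2 change -0.86 ± 0.23, adjusted p = 0.0376), and the silencing and decay genes Ddx6, Tnrc6a and Xrn1 fell by 1.07, 0.59 and 0.71. The second Tnrc6a probe gave −0.13 and did not pass. Of the 5 calls, 0 remained without replicate A of shScr1, 0 without its replicate B and 2 to 4 without any 1 of the other 4 arrays.

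Among the 15 largest rises of genes detected on all 4 arrays were genes outside the muscle and matrix lists. Parm1, a membrane mucin, was at 11.11 and 11.11 on the miR-128 arrays, against 6.62 and 6.44 on the shScr1 arrays (log2 change 4.58 ± 0.15, adjusted p = 0.000139), and its second probe, undetected in shScr1, also passed. Tgm2, transglutaminase 2, which crosslinks proteins, was at 12.06 and 11.44 with miR-128, against 7.79 and 8.13 in shScr1 (log2 change 3.78 ± 0.24, adjusted p = 0.000832), and Ckb, brain creatine kinase, was at 13.03 and 13.08 with miR-128, against 9.83 and 9.95 in shScr1 (log2 change 3.16 ± 0.15, adjusted p = 0.000270). In shScr2 these lay above shScr1, at 8.58 and 8.57, 9.28 and 9.30 and 10.70 and 10.66. Pkp2, a desmosomal plakophilin, was at 8.31 and 8.40 with miR-128, against 5.45 and 5.10 in shScr1 (log2 change 3.08 ± 0.21, adjusted p = 0.000991), and Psca, a surface antigen, was at 9.82 and 9.39 with miR-128, against 6.45 and 6.45 in shScr1 (log2 change 3.16 ± 0.20, adjusted p = 0.000791). The gene 4930486L24Rik was at 10.41 and 10.42 with miR-128, against 6.69 and 6.80 in shScr1 (log2 change 3.67 ± 0.15, adjusted p = 0.000221). Fam210b, a mitochondrial protein, was at 9.71 and 7.89 with miR-128, against 5.30 and 5.47 in shScr1 (log2 change 3.42 ± 0.57, adjusted p = 0.00956), with a wide gap between its miR-128 arrays. Sema7a, a semaphorin, and Rgs16, a regulator of G protein signals, were undetected in shScr1 and at least 9.69-fold and 5.56-fold higher (adjusted p = 0.000832 and 0.00206). For Rgs16, shScr2 was at 6.27 and 6.28.

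Among the 15 largest falls of genes detected on all 4 arrays were genes outside the lists. Tcf19, a growth-regulated nuclear factor, was at 6.71 and 7.45 on the miR-128 arrays, against 9.78 and 9.55 on the shScr1 arrays (log2 change -2.58 ± 0.26, adjusted p = 0.00270). Pus7l, a pseudouridine synthase-like gene, was at 6.53 and 6.25 with miR-128, against 8.86 and 9.09 in shScr1 (log2 change -2.59 ± 0.18, adjusted p = 0.00102), and Ptms, parathymosin, was at 6.03 and 5.41 with miR-128, against 8.05 and 8.17 in shScr1 (log2 change -2.39 ± 0.23, adjusted p = 0.00206). Ydjc was at 7.45 and 6.56 with miR-128, against 9.62 and 9.66 in shScr1 (log2 change -2.64 ± 0.29, adjusted p = 0.00315) and Grcc10 at 6.00 and 5.14 with miR-128, against 8.14 and 8.06 in shScr1 (log2 change -2.53 ± 0.29, adjusted p = 0.00332). The arrays were apart for all 5 genes, as the rule for naming them required. Epha1, an ephrin receptor, was at 5.88 and 6.16 with miR-128, against 8.40 and 8.38 in shScr1 (log2 change -2.37 ± 0.17, adjusted p = 0.00109), while another of its 4 probes gave −0.37 and did not pass. Among genes undetected on both miR-128 arrays, Bdkrb1, a kinin receptor, was at least 2.41-fold lower, Fstl4 at least 2.39-fold, Slc1a5, a glutamine carrier, at least 2.06-fold and Ramp2, a partner of the adrenomedullin receptor, at least 1.95-fold (adjusted p = 0.00290, 0.0143, 0.0117 and 0.0149). Ramp2 is also expressed by endothelial cells. Of the 2 endothelial markers that met the rule, Egfl7 fell by 0.99. The other, Kdr, did not pass, at 4.99 and 5.31 with miR-128, against 5.02 and 5.38 in shScr1. The summed signal of 9 endothelial markers was 399 and 433 on the miR-128 arrays and 642 and 716 on the shScr2 arrays, against 603 and 695 on the shScr1 arrays, with Pecam1, Cdh5, Tie1, Vwf, Emcn and Erg undetected on all 4. Egfl7 weighed most in that sum on every array. In the mesothelial and epithelial list, Krt19 rose by 1.57 ± 0.18, Krt18 was at least 1.16-fold higher, and Msln and Cdh1 fell by 1.92 and 0.93, with Msln detected on 1 miR-128 array. Whether a few other cells contribute to these values was not tested.

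The gap between the miR-128 replicates was uneven across the lists. It was widest for mitosis and next for replication, where the median was -1.44 for replicate A and -0.82 for replicate B. The histone genes H2ac7, H2ac11 and H2ac15 and the genes Mmp13 and Gpnmb had the widest gaps among called genes, and Gpnmb, a lysosomal glycoprotein, was at 9.0 and 6.96 with miR-128, against 5.48 and 5.64 in shScr1 (log2 change 2.42 ± 0.59, adjusted p = 0.0288). For these, the mean of miR-128 describes neither replicate. The muscle lists and the cholesterol list kept the same direction on each miR-128 array set against the shScr1 mean. In the contractile list the median was 1.54 for replicate A and 1.56 for replicate B, and in the cholesterol list -1.38 and -1.15.

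**Figure D4:**
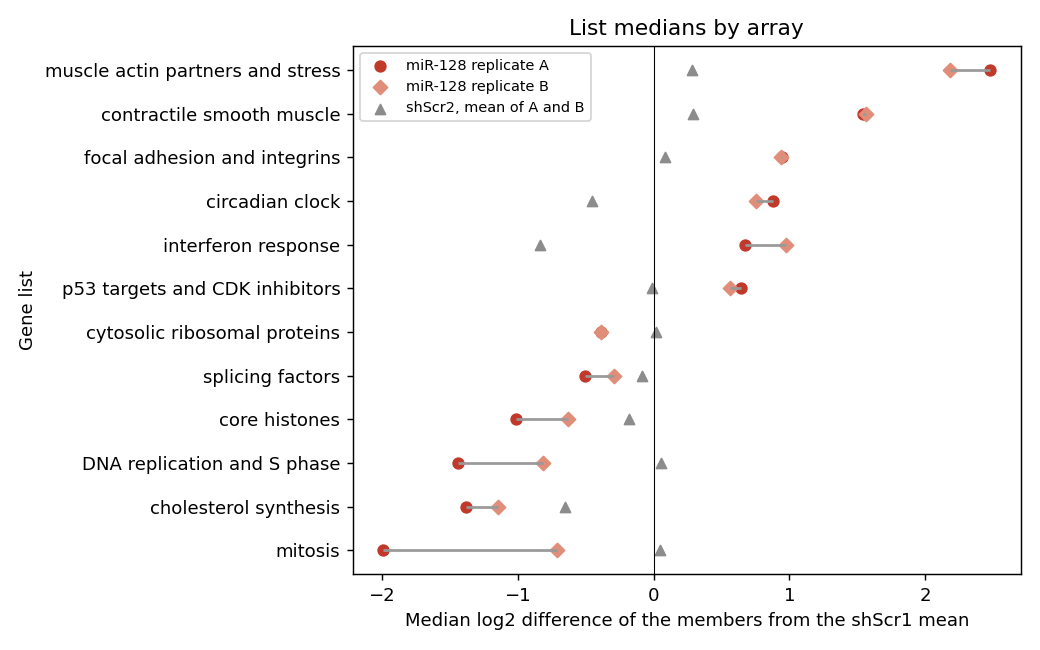
Median log2 change of each gene list for miR-128 replicate A and replicate B, each set against the mean of the shScr1 arrays (horizontal axis, log2), with triangles for the shScr2 mean. Mitosis lies at −1.99 for replicate A and −0.71 for replicate B, while the contractile medians of the replicates lie close together.

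Some genes differed between the scrambled groups. Between shScr2 and shScr1, 11 genes were called (0.132%), of which 3 were higher and 8 lower in shScr2, and 1014 had an unadjusted p under 0.05. The calls among them depended on the fit: 1 gene was called with the replicate block, and 0 to 358 with 1 array left out. Lims2, Parm1 and Mycl, which rose with miR-128, were also higher in shScr2 than in shScr1, by 1.85, 2.04 and 1.40 on the log2 scale. Mycl, a MYC family gene, was at 8.0 and 8.19 with miR-128, against 5.90 and 5.88 in shScr1, and at 7.32 and 7.26 in shScr2. Gdf10 and Fmo1, a BMP family ligand and a flavin monooxygenase, fell against shScr1 (log2 changes of -2.12 ± 0.33 and -1.47 ± 0.19) but were above shScr2, whose levels were 5.01 and 4.79 and 4.53 and 4.79. Egr2 showed the same, at 6.47 and 6.50 with miR-128, against 7.40 and 7.31 in shScr1, and at 5.47 and 5.35 in shScr2. Emb, embigin, was at 9.17 and 9.18 with miR-128, against 10.31 and 10.24 in shScr1, and shScr2, at 8.79 and 8.94, was below miR-128. Dcn, decorin, and Bace2 did not differ past the threshold from shScr1, at -0.15 ± 0.18 and 0.01 ± 0.14, and were far above shScr2, at 7.87 and 7.83 and 5.74 and 5.79. Osgin1 was at a log2 change of -0.57 ± 0.18 (adjusted p = 0.0582). Against shScr2, 2135 genes were called with miR-128 (25.7%), and these comparisons share the miR-128 arrays.

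**Figure D5:**
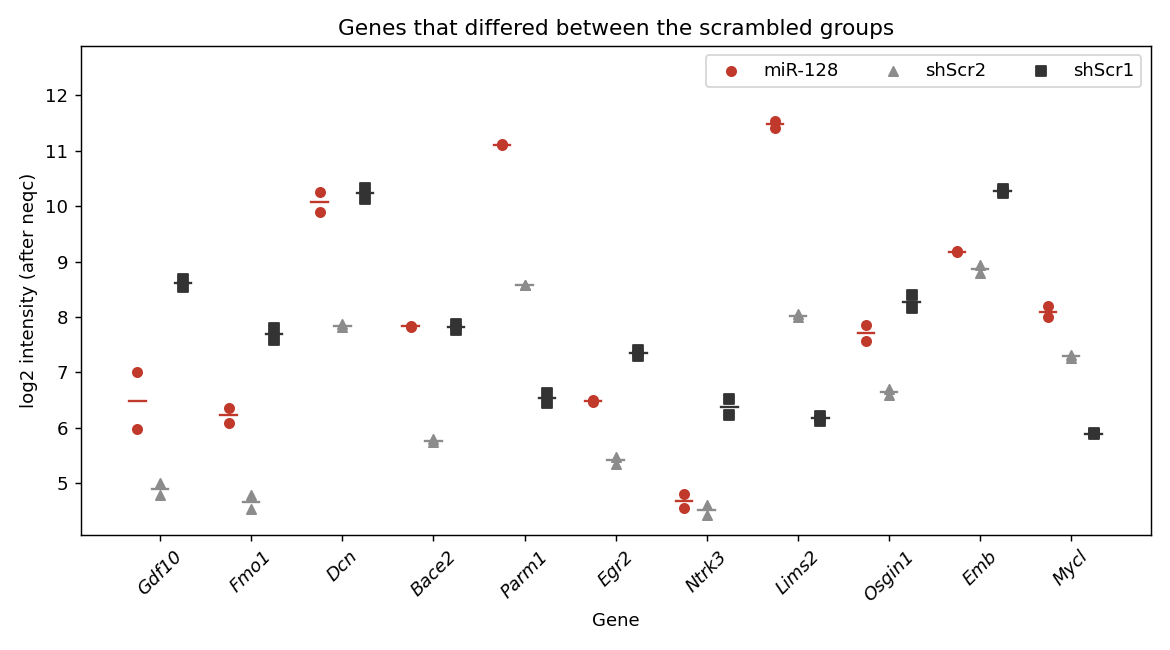
Log2 intensity on each array of the 11 genes called between the scrambled groups, with miR-128, shScr2 and shScr1 from left to right, 1 point per replicate and a bar at the group mean. For Dcn and Bace2 the miR-128 points lie at the shScr1 level, and for Ntrk3 at the shScr2 level.

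In several lists the share of members called was near or below the 27.1% over all genes, among them the inflammatory (27.8%), immediate early (30.8%), unfolded protein response (25.9%), chromatin (20.8%) and ion channel lists (18.8%), and their counts say nothing particular to these lists. In 4 bins of equal size by mean level, low to high, 15%, 15.1%, 15.1% and 13.0% of genes were higher and 6.6%, 13.8%, 14.9% and 14.8% lower. The detection rule enters these shares. Through miR-128 alone 763 genes met it, with 228 higher and 0 lower, and through shScr1 alone 250, with 0 higher and 58 lower. The bins were not split by this, so they do not show how rises and falls depend on level. By chromosome, the share of genes higher ran between 10.5% on chromosome 16 and 17.9% on chromosome 1, and the share lower between 8.37% on chromosome 1 and 17.8% on chromosome 13. Promoter windows had a median GC content of 60% for genes that rose, 61% for those that fell and 60.67% for those not called. A TATA box, TATAAA on either strand, lay in 6 of 8 windows of the histone genes that fell, against 7.53% of windows of all genes that met the rule. The sterol element, searched in 1 exact form on either strand, lay in 0 of 16 windows of the cholesterol list, and in 0.102% of all such windows. Forms that depart from it were not searched. Where a gene had more than 1 probe that met the rule, the probes rarely opposed each other: of 2224 such genes, 809 had a called probe, 266 had all probes called to 1 side and 2 had probes called to opposite sides. Of the genes named above, Smtn, Ilk, Vars, Hnrnpa1, Srsf10, Nr1d1, Gusb, Shmt2, Ddx6 and Atp6v0d1 each had a further probe that lay in the same direction without passing.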

How the data were processed

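RNA of 6 samples, in 3 groups of 2, was measured on arrays of 25697 probes. The deposited non-normalized table holds a linear intensity and a detection p-value for each probe and array, per the file headers, and the authors' second deposited table holds processed values on a log2-like scale, whose transform is not given in the sources used here. GenomeStudio 2011.1, limma and lumi are named in the submitters' processing notes, with no step assigned to them. To match the columns of both, log2 intensities and the authors' values were each taken less the probe's mean over the 6 arrays. Over 3855 bright probes these differences correlated at 0.974 to 0.987 for the same sample, and at no more than 0.842 for any other.

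Intensities were background-corrected and quantile normalized with neqc (offset 16) in limma 3.58.1 (R 4.3.3), over all 6 arrays. Of the probes, 23978 carry 1 gene symbol in the platform annotation, 1719 none and 0 several, and 23962 were matched by Entrez number, which changed 0 symbols. Of 11423 named probes that met the detection rule, the brightest of each gene over the 6 arrays was kept. A mean per group was fitted with lmFit and eBayes, trend and robust off (residual df 3, prior df 3.42, prior SD 0.193), with 2-sided p-values adjusted by Benjamini-Hochberg over the 8306 genes. Values after ± are standard errors of limma, with 2 arrays a group. The number of arrays limits the precision. Of 50 genes simulated at each log2 change, 0% were recovered at 0.5, 34% at 1, 86% at 2 and 98% at 3. Of its 118 calls, 9 were false. That simulation held far fewer changed genes than the 2248 calls of these data, and gave each gene the same spread in all groups. Its shares therefore do not carry over to these data. A bound for a gene undetected on both arrays of a group is taken against the lowest detected level of each array, or the gene's own level where that is higher. Sequences are from RefSeq, and 6805 of the 8306 genes had a promoter window.

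The gene lists, the rule for named genes and the members were chosen with earlier results of these data known. Named were the 15 highest and 15 lowest log2 changes among called genes detected in both groups whose arrays do not overlap, the 6 with the largest bound in each direction, in each list the 4 called members of smallest adjusted p, 11 genes fixed by name, called genes that also differ between the scrambled groups, and the 5 called genes with the widest miR-128 replicate gap. Arrays that do not overlap were thus a condition for naming the 15 highest and 15 lowest, and not a result. List members named for the smallest adjusted p were picked for clear separation too. Arrays that do not overlap are therefore no further result for them. Other list members were named after their values were seen, to complete a count, as were Gdf10, Fmo1, Dcn, Bace2, Osgin1, Igtp and H3c7. Alternatives were other background, normalization, filter, probe and model settings, the authors' values, a replicate block and each array left out.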

Additional observations from a re-analysis of the deposited data

Results flagged for a closer look

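Probes without a gene name in the annotation stayed out of the gene comparisons but carried signal that differed between the groups. Of 711 such probes that met the detection rule, 87 were higher and 99 lower with miR-128, with p adjusted in limma over all 12134 probes that met it. The probe ILMN_2681913 averaged 11 with miR-128 and 7.01 in shScr1, a log2 change of 4.00 ± 0.37 (adjusted p = 0.00228). ILMN_2735350 averaged 9.75 with miR-128 and 7.01 in shScr1, a change of 2.73 ± 0.21 (adjusted p = 0.00138). Among the falls, ILMN_2756023 averaged 4.83 with miR-128 and 7.55 in shScr1, a change of −2.71 ± 0.20 (adjusted p = 0.00124). ILMN_2690603 averaged 6.93 with miR-128 and 9.36 in shScr1, a change of −2.43 ± 0.61 (adjusted p = 0.0340). Which RNA these probes read is not known here.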

How the results depend on the processing

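With the 4 arrays of miR-128 and shScr1 fitted alone, 1292 genes were called, 734 higher and 558 lower. With a common median in place of quantile normalization, 1477 were called, of which 490 were lower, and the cause was not tested. Leaving out each array in turn gave between 300 and 3577 calls, with 183 to 1835 higher and 117 to 1742 lower. The lowest counts came without an shScr1 array and the highest without a miR-128 array. All other settings gave between 1899 calls, without a detection filter, and 2476, with trend and robust eBayes. With the authors' values 1648 of the 2248 calls remained and 2046 were made. The same replicate letters are carried by each group, and whether arrays of the same letter share a preparation is not stated in the sources used here. Over the genes, A minus B correlated between groups at 0.141 to 0.157, which does not show whether they do. With the replicate block, 2252 genes were called, 2089 of them shared with the fit without it.

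Between shScr2 and shScr1, where 11 genes were called, the block left 1, a common median 4, no detection filter 6, a detection p under 0.01 18, the authors' values 21, the mean over probes 22, no background correction 29 and trend and robust 49. Leaving out each array gave between 0 calls, with 505 to 591 genes at an unadjusted p under 0.05, and 358.

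Levels near the detection limit, 4.71 to 4.98 on the 4 arrays, give only bounds, and bounds depend on the background correction. The size of a log2 change depended on the settings as well. Over them Tnc ran from 2.05 to 4.35, Lmcd1 from 1.89 to 5.19 and Gas6 from 0.50 to 2.75. Genes that were bright in both groups could vary less, with Fhl1 from 2.45 to 2.58 and Rpl29 from -3.46 to -3.24. The replicates are 2 a group, and the miR-128 replicates differ more than the fit assumes.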
